A study of Mus musculus with 71 samples.

Results

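The effect of a skin burn on RNA levels in the mouse hippocampus was measured in 2 separately labelled batches, and the burn change of one batch was compared with that of the other. The libraries were chosen by their labelled tissue, treatment and batch: 19 of the 71 bulk RNA-seq libraries of the series were hippocampus libraries of burned or sham mice. Batch 1 held 5 burn and 4 sham libraries, the sham libraries numbered 2 to 5, and batch 2 held 5 burn and 5 sham libraries. All came from C57BL/6J mice, an inbred laboratory strain, under isoflurane anaesthesia, with no further allele named in the labels. Burn mice had a brass rod of 19 mm diameter, heated above 90 °C, held on the right dorsal flank for 10 s, which made a full-thickness burn over 7 to 8% of the body surface. The site was shaved in every group. Sham mice were handled at the medial posterior dorsal side and received no wound, so the groups also differ in the body site handled, and a chlorhexidine scrub is described for the wounded mice. Every mouse was given the opioid analgesic buprenorphine (0.1 mg/kg) and drank water with paracetamol (1 mg/mL) for 5 days, so both pain drugs were shared by the groups compared. The 10 hippocampus libraries of excision-wounded mice, 5 in each batch, entered the fit only for its estimate of the spread. For age, time since injury, hour of tissue collection and the meaning of the word batch, the sources used here give nothing. The labels do not say that each library came from its own mouse, so p-values measure the spread between libraries.

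The hippocampus holds the granule cells of the dentate gyrus and the pyramidal cells of the CA fields, and its transcripts are among the most studied readouts of learning, stress and peripheral injury. Several of its transcript groups follow short-lived states of the animal: immediate early genes such as Fosb follow neuronal firing, clock output genes such as Dbp follow the hour of the day, and chaperones of the endoplasmic reticulum (ER) follow the load of proteins waiting to be folded. Nuclear long noncoding RNAs such as Malat1 stay in the nucleus, where several of them sit beside the splicing machinery.

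In all 19 libraries the defining hippocampal genes were present: the dentate granule cell list summed to 481 to 914 CPM (a gene's counts scaled to one common, TMM-normalised library size), the CA1 list to 857 to 1080 CPM and the CA3 and CA2 list to 556 to 686 CPM. Xist, the noncoding RNA of the inactive X chromosome, read 38.4 to 285 CPM and the Y-linked Ddx3y at most 0.0358 CPM. The log2 change of Xist after burn was -1.01 in batch 1, where it was called lower, and -0.16 in batch 2. That call was lost in 6 of 19 fits that each left out 1 library. Total counts were 7130376 to 31169017 in the burn and 7339556 to 32272944 in the sham libraries of batch 1, against 35563566 to 47796536 and 30680434 to 39541738 in batch 2. The library numbers ran by whole treatment within each batch, so any effect of that order cannot be told apart from treatment. Some libraries stood apart from the rest of their group. Sham replicate 3 of batch 1 had a haemoglobin sum of 3146 CPM and a neutrophil sum of 294 CPM, where the other 3 sham libraries of that batch read 421 to 760 and 16.6 to 22.0 CPM. Sham replicate 5 of batch 1 had a choroid plexus sum of 7271 CPM, where the other 3 read 169 to 475 CPM. That library was also the shallowest of the sham group, and for 1050 of the 1808 genes called in batch 1 (58.1%) its level lay within or beyond the range of the burn libraries, against 35, 39 and 141 genes for sham replicates 4, 2 and 3.

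**Figure D1:**
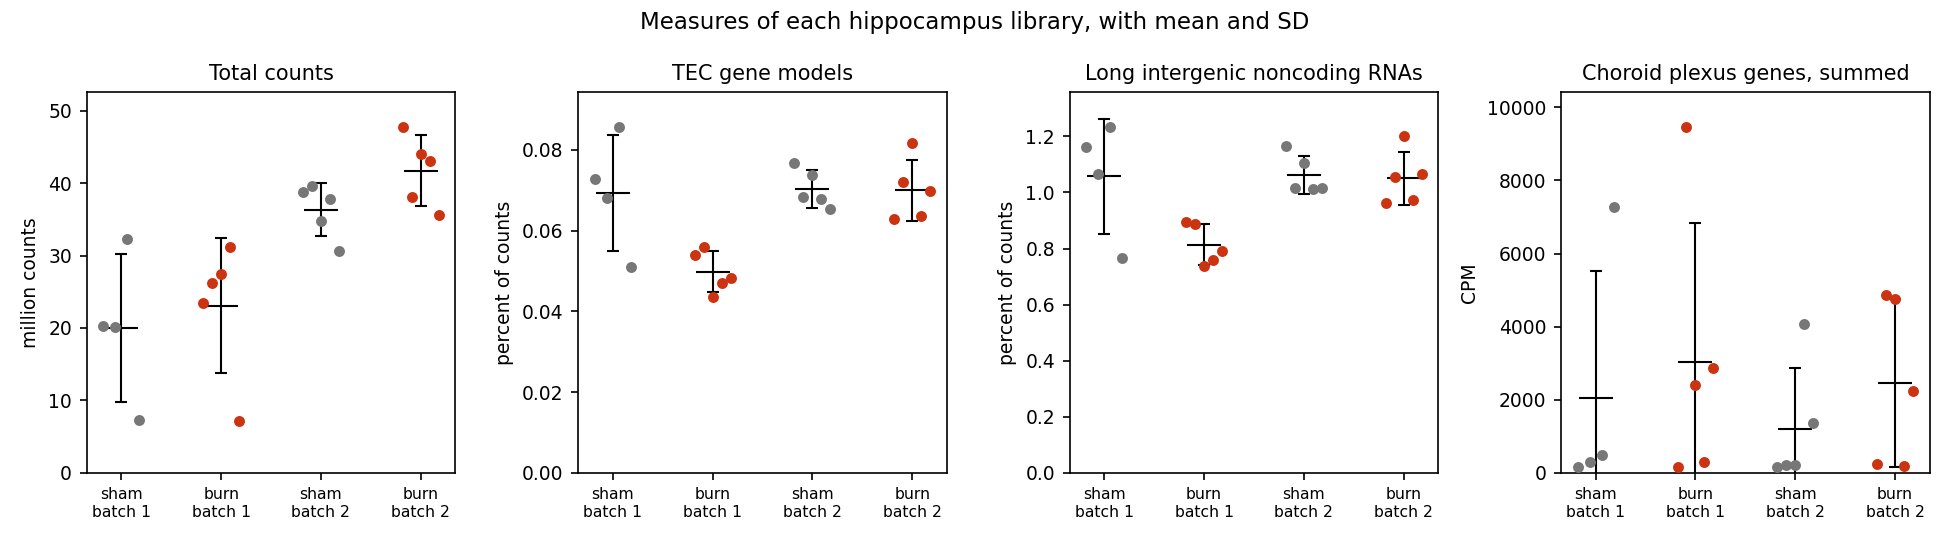
Total counts, the percent of counts in TEC gene models (a GENCODE class of mostly unspliced models without experimental support), the percent in long noncoding RNAs, and the summed CPM of choroid plexus genes, for each of the 19 libraries by group, with mean and SD (the part of a bar that would pass below 0 is not drawn). The panel titled long intergenic noncoding RNAs sums several GENCODE classes. They are long intergenic, antisense, processed transcript, sense intronic, bidirectional promoter and macro noncoding genes. Burn libraries of batch 1 sit at 0.0436 to 0.056% TEC counts, below 3 of the 4 sham libraries of that batch, while the groups of batch 2 overlap.

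Many more genes were called in batch 1 than in batch 2, and few were called for the difference between the batches. With edgeR's quasi-likelihood test and Benjamini-Hochberg adjustment over 19574 genes, a gene was called when its adjusted p was under 0.05, and a gene called in one batch and not in the other is not thereby shown to differ between them. In batch 1, 1808 genes were called (9.24% of those tested), of which 491 were higher (2.51%) and 1317 lower (6.73%) after burn. In batch 2, 38 genes were called (0.194%), 13 of them higher (0.0664%) and 25 lower (0.128%). The burn change itself differed between the batches for 9 genes (0.046%), and all 9 had the higher change in batch 2. At an unadjusted p under 0.05, 11% of genes were higher and 13.8% lower in batch 1, 3.40% higher and 3.68% lower in batch 2, and for the difference 9.45% were higher and 6.79% lower. The log2 changes spread more widely in batch 1 (SD 0.49 across genes) than in batch 2 (SD 0.22), with median standard errors of 0.15 and 0.13.

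Repetition was counted as the same direction with an unadjusted p under 0.05 in the other batch. Of the 491 genes higher in batch 1, 31 repeated in batch 2, or 6.31% where 3.40% of all genes were higher at that level, and 3 went the opposite way. Of the 1317 lower genes, 82 repeated, or 6.23% where the share among all genes was 3.68%, and 12 went the opposite way. These shares were above the background, but the median change in batch 2 of the genes called in batch 1 was only 0.02 for the higher and -0.06 for the lower group. Read the other way, 5 of the 13 genes higher in batch 2 repeated in batch 1 (38.5%, background 11%), as did 11 of the 25 lower genes (44%, background 13.8%). Across the 19574 genes the 2 changes had a Pearson correlation of 0.20 and a Spearman correlation of 0.15, and 53.8% of genes had the same sign. The batches share no control library, and genes are not independent replicates.

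**Figure D2:**
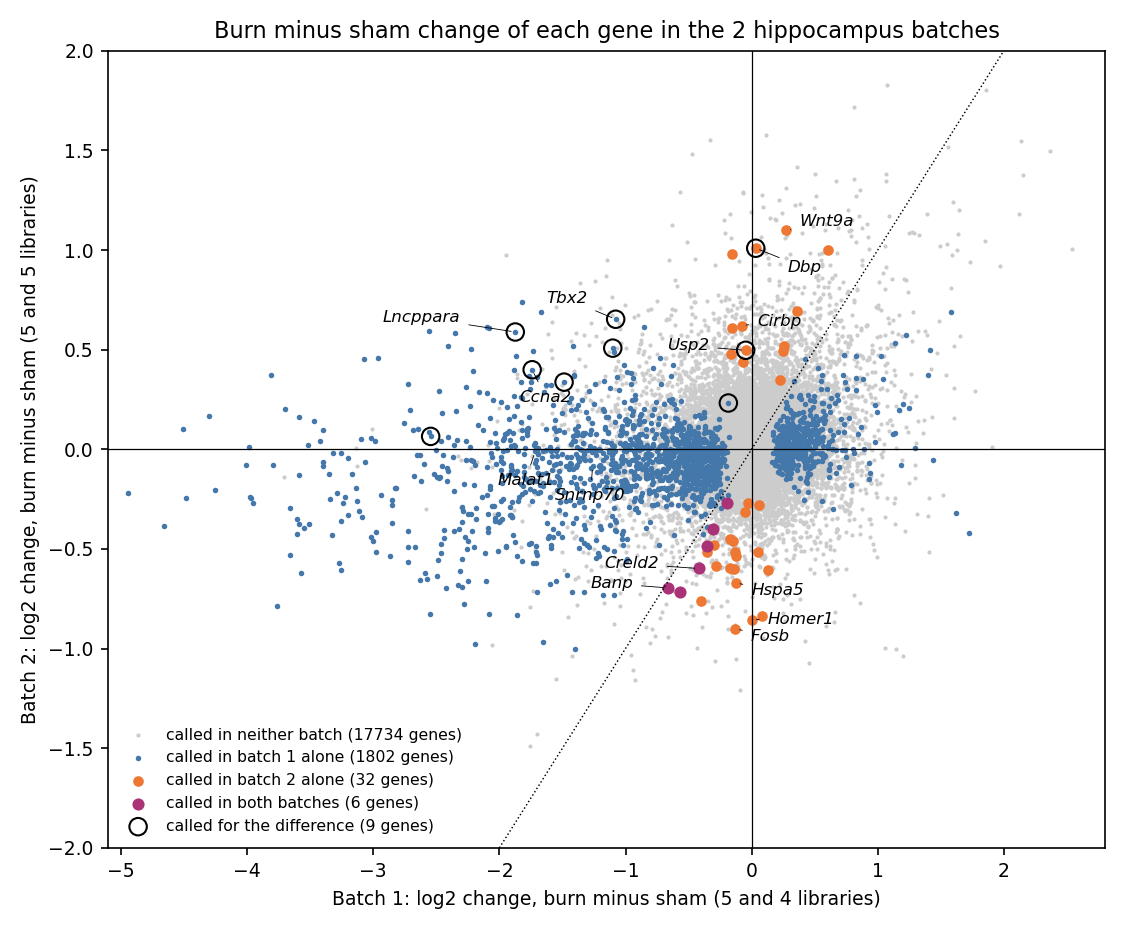
Each point is a gene, with its log2 change (burn minus sham) in batch 1 on the x axis and in batch 2 on the y axis, and the dotted line marks equal changes. Blue points called in batch 1 alone (1802) spread along the x axis, orange points called in batch 2 alone (32) along the y axis, the 6 purple points called in both lie at the lower left, and the 9 circled genes differ between batches.

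The 6 genes called in both batches, Banp, Zbtb40, Creld2, Kansl3, Med20 and Prkab2, were all lower after burn. Banp, Zbtb40, Kansl3 and Med20 encode nuclear proteins that act on chromatin or transcription. Banp (ENSMUSG00000025316, chr8:121949750-122029258 on GRCm38) encodes a chromatin protein that binds CpG-rich promoters. In batch 1 Banp read 29.5, 21.4, 23.6, 19.8 and 21.6 CPM in the burn libraries and 41.5, 34.7, 37.5 and 32.4 CPM in the sham libraries. The batch 2 levels were 23.4, 21.4, 30.1, 20.2 and 24 CPM after burn and 37, 35.2, 43.8, 42.7 and 34.4 CPM after sham. Every burn library was below every sham library of its batch, and the levels of each treatment lay in the same range in both batches. The log2 change of Banp was -0.66 ± 0.12 (SE) in batch 1 (adjusted p = 0.0041, edgeR) and -0.7 ± 0.11 in batch 2 (adjusted p = 0.00227). In bulk tissue, fewer cells that carry a transcript and less of it per cell cannot be told apart.

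Zbtb40 (chr4:136979732-137048801), a zinc finger protein of the BTB family, followed the same pattern. It read 13.8, 9.32, 11.3, 9.32 and 7.21 CPM in the burn and 18.2, 13.9, 15 and 13.9 CPM in the sham libraries of batch 1. In batch 2 the burn libraries read 10.3, 7.64, 11.1, 7.71 and 7.59 CPM and the sham libraries 15.1, 14.1, 14.7, 14.5 and 14.5 CPM. The groups did not overlap in either batch. Its changes were -0.57 ± 0.14 (adjusted p = 0.0134, edgeR) and -0.71 ± 0.13 (0.00866). The call for Zbtb40 was lost in batch 1 without sham replicate 2 (adjusted p = 0.0847) or 4 (0.0529), and in batch 2 without burn replicate 2 (0.0505).

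Kansl3 (chr1:36335730-36369181) is a subunit of the NSL complex, which carries a histone acetyltransferase to promoters. Its levels were 76.2, 70.5, 71.1, 71.4 and 67.6 CPM after burn and 79.3, 78.1, 86.1 and 84.2 CPM after sham in batch 1, and 70.4, 67.1, 73.8, 68.6 and 70.7 CPM against 88.4, 84, 81.3, 86.1 and 82.4 CPM in batch 2. The difference was small and the groups did not overlap in either batch: the changes were -0.2 ± 0.05 (adjusted p = 0.0203, edgeR) and -0.27 ± 0.05 (0.0102). Without sham replicate 4 the batch 1 call of Kansl3 was lost (adjusted p = 0.101), as was the batch 2 call without burn replicate 2 (0.0575). Med20, a subunit of the Mediator complex that links transcription factors to RNA polymerase II, was 13.1 to 15.6 CPM after burn and 16.1 to 19.5 CPM after sham in batch 1, and 11.4 to 14 against 14.5 to 17.9 CPM in batch 2. Its changes of -0.31 (adjusted p = 0.0279, edgeR) and -0.4 (0.0303) were called, but leaving out 1 library ended the call in 5 of 19 fits for batch 1 and in 7 of 19 for batch 2. Prkab2, a regulatory subunit of the energy sensor AMPK, was named after its values were seen. Its changes of -0.36 (0.0476) and -0.48 (0.0477) lay just inside the edgeR threshold, and they lost their calls in 13 and 14 of the 19 fits.

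Beyond these 6 genes, the lower genes whose weaker p-value of the 2 batches was smallest included Baiap2, Ncoa5, Numbl, St7 and Trim17. Baiap2 encodes a postsynaptic scaffold of the actin skeleton. It read 268, 216, 252, 235 and 252 CPM after burn and 337, 339, 323 and 261 CPM after sham in batch 1, and 296, 252, 304, 234 and 273 CPM against 344, 321, 374, 331 and 333 CPM in batch 2. In batch 1 burn replicate 1 overlapped the lowest sham library, and in batch 2 the groups did not overlap. Its change of -0.37 ± 0.09 in batch 1 was called (adjusted p = 0.0096, edgeR), while its change of -0.33 ± 0.08 in batch 2 was not (0.112). The batch 1 call was lost without sham replicate 2 (0.0502) or 4 (0.0517). Ncoa5 (nuclear receptor coactivator), Numbl (an adaptor of Notch signalling), St7 and Trim17 (a ubiquitin ligase) had changes of -0.23, -0.29, -0.24 and -0.38 in batch 1 and of -0.24, -0.28, -0.21 and -0.42 in batch 2.

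On the higher side, no gene passed the threshold in both batches. Among the higher genes whose weaker unadjusted p of the 2 batches was smallest were Bloc1s5 and Gm49492. Bloc1s5 is a subunit of the complex that builds lysosome-related organelles. Gm49492 is a promoter-associated noncoding RNA with changes of 0.42 and 0.45. Bloc1s5 read 13.9, 14.8, 17.9, 17.4 and 17.3 CPM after burn and 13, 13.1, 12.2 and 13.3 CPM after sham in batch 1. Batch 2 gave 15.2, 17.1, 15, 17.9 and 16.4 CPM after burn and 13, 14, 12.5, 14 and 10.8 CPM after sham. All burn libraries were above all sham libraries of their batch, with changes of 0.33 ± 0.09 (adjusted p = 0.022, edgeR) and 0.34 ± 0.08 (0.0919). The batch 1 call was lost without burn replicate 3 or 4 or sham replicate 2 or 4, with adjusted p of at most 0.0997.

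Insig1, which holds the sterol sensor of cholesterol synthesis in the ER, read 52.8, 69.8, 66.1, 66.9 and 71.7 CPM after burn and 51.7, 53.6, 52.1 and 60.02 CPM after sham in batch 1, and 61.8, 63.6, 62.5, 74.5 and 63.1 CPM against 53.8, 54.9, 54.7, 52 and 60.4 CPM in batch 2. In batch 2 all burn libraries were above all sham libraries, and in batch 1 only burn replicate 1 overlapped the sham group. The change was 0.27 ± 0.08 in batch 1 (adjusted p = 0.0354, edgeR; lost in 7 of 19 fits that left out a library) and 0.24 ± 0.08 in batch 2 (adjusted p = 0.288). Its list as a whole did not repeat: of 19 measured genes of cholesterol synthesis, 17 had a positive change in batch 1 (median 0.11) and 7 in batch 2 (median -0.05). Insig1 was the list's sole call, where 2.51% of all genes were called higher in batch 1. Heph, a ferroxidase of iron export, rose in batch 1 (0.73 ± 0.17, adjusted p = 0.00988, edgeR) and had a change of 0.47 ± 0.16 in batch 2 (0.352). Zfp46, a zinc finger gene, rose in batch 2 (0.52 ± 0.08, 0.00126) and had a change of 0.26 ± 0.09 in batch 1 (0.0596). Over all genes, burn and sham libraries were apart in both batches for 31 of 19574 (0.158%), and among the 20 genes named by this rule for 7 of the 10 lower and 3 of the 10 higher, a share that the choice of members largely fixes.

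ER chaperone genes were called lower mainly in batch 2. Of the 19 measured, 12 had a change of the same sign in both batches, where 53.8% of all genes did, so that count alone does not show repetition. The promoters of 4 genes that fell or rose in batch 2 are printed here, because they hold the letters of the element known from the ER stress response or from the clock. The sequences are RefSeq promoters on GRCm38.p6, from 250 bases before to 50 bases after the gene start, 5′ to 3′ on the gene's strand. Capitals mark the ER stress element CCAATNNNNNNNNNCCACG on either strand in the first 3 and the E-box CACGTG, the palindromic site of the clock proteins, in the last. They cover chr2:34771840-34772139 (plus strand), chr15:88819396-88819695 (plus strand), chr12:17266339-17266638 (plus strand) and chr3:95882179-95882478 (minus strand).
Hspa5: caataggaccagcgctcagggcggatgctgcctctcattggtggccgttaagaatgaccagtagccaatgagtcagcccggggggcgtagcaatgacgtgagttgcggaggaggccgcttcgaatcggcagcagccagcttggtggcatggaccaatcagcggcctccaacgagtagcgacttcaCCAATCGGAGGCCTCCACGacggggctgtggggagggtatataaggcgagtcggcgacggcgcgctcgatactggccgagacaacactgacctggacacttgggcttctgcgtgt
Creld2: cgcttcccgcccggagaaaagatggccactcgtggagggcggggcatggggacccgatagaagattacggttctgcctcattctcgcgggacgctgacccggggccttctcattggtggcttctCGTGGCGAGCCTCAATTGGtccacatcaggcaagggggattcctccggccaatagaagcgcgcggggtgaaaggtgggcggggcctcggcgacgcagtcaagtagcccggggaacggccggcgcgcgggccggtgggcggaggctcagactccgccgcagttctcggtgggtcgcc
Pdia6: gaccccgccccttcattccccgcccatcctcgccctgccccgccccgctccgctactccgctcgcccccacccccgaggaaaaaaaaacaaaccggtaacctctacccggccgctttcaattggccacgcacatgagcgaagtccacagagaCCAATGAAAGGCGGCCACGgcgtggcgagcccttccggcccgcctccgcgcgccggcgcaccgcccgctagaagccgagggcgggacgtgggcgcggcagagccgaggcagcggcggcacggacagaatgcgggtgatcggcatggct
Ciart: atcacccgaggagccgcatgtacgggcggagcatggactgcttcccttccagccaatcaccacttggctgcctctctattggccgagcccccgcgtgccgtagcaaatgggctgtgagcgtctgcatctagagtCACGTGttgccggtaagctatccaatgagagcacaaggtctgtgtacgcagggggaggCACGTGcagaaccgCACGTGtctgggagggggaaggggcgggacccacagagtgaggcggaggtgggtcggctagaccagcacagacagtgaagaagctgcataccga
The ER stress element was found in 39 of 32851 RefSeq mouse promoters of this length (0.119%), and the E-box in 7.15%. Of the 18 genes looked up, 14 had an entry. Sdf2l1, Pdia4 and Xbp1 held no match to the ER stress element, and Dbp, Usp2, Nr1d1 and Nfil3 held no E-box, which says only that these letters are not in the window. A match describes the sequence and is not evidence of binding.

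Creld2, which assists disulfide exchange in the ER and is released on ER stress, fell in both batches. In batch 1 it read 17.7, 15.9, 17.7, 17.2 and 18 CPM after burn and 25.6, 23.7, 20.03 and 22.9 CPM after sham. In batch 2 the burn libraries read 12, 13, 13.8, 12.1 and 12 CPM and the sham libraries 19.4, 16.7, 20.7, 20.2 and 18.3 CPM. The groups did not overlap in either batch, and the burn libraries of batch 2 were also below those of batch 1. The changes of Creld2 were -0.42 ± 0.11 (adjusted p = 0.0206, edgeR) and -0.6 ± 0.10 (0.00525), and the batch 1 call was lost without sham replicate 2 (0.101).

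Hspa5, also called BiP, is the main chaperone of the ER and a classic target of its stress response. Its levels in batch 1 were 353, 320.5, 373, 344 and 307 CPM after burn and 339.97, 406, 312 and 424 CPM after sham, 2 groups that overlapped. In batch 2 they were 205, 191, 224, 174 and 186 CPM after burn and 293, 302, 278, 348 and 339 CPM after sham, and every burn library was below every other library of the 19. The change was -0.12 ± 0.11 in batch 1 (adjusted p = 0.508, edgeR) and -0.67 ± 0.10 in batch 2 (0.00121), and the call in batch 2 held with each library left out. The difference of -0.55 ± 0.15 between the 2 changes did not pass the threshold (adjusted p = 0.0933), although it did without sham replicate 5 of batch 1 (0.0205) or sham replicate 3 of batch 2 (0.0424).

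Xbp1, the transcription factor spliced by the ER stress sensor IRE1, read 91.1, 83.9, 96.5, 86.3 and 82.2 CPM after burn and 105, 92.7, 87.7 and 101 CPM after sham in batch 1, and 68.9, 57.5, 63.1, 65.2 and 66.9 CPM against 87.2, 87.9, 95.9, 89.4 and 99.3 CPM in batch 2. The groups overlapped in batch 1 and were apart in batch 2, with changes of -0.13 ± 0.09 (adjusted p = 0.357, edgeR) and -0.51 ± 0.08 (0.00126). Sdf2l1, a partner of BiP, read 15.7, 15.1, 18.8, 15.9 and 13.4 CPM after burn and 23.3, 22.5, 15.2 and 23.6 CPM after sham in batch 1, where sham replicate 4 lay among the burn libraries. Levels in batch 2 were 10.3, 10.6, 12.2, 8.21 and 8.56 CPM after burn and 15.6, 15, 18.9, 18.5 and 16.4 CPM after sham, and the groups were apart. Its change of -0.4 ± 0.15 in batch 1 was not called (adjusted p = 0.0987, edgeR), and that of -0.76 ± 0.14 in batch 2 was (0.0111; 0.0579 without burn replicate 4 and 0.0512 without sham replicate 4). The secreted survival factor Manf (-0.48) and the ER chaperone Hyou1 (-0.32) fell in batch 2 too, and each lost its call in at least 7 of the 19 fits that left out a library.

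Of the 19 measured genes of the ER chaperone and unfolded protein response list, 17 had a negative change in batch 2 and 12 in batch 1. In batch 2, 6 were called lower (0.128% of all genes were) and none higher (median -0.18, median of all genes 0.00). In batch 1, 2 were called lower (6.73% of all genes), Creld2 and the ER ubiquitin ligase Syvn1 (-0.31, adjusted p = 0.00497, edgeR). The BiP co-chaperone Dnajb9 was the 1 called higher (0.39, adjusted p = 0.018, edgeR), where 2.51% of all genes were. The list's batch 1 median was -0.05. Dnajb9 had a change of 0.00 in batch 2, and Syvn1 of -0.18. The Dnajb9 call was lost without burn replicate 3 or sham replicate 2 or 4 of batch 1. For the difference between batches, 6 of the list were lower at an unadjusted p under 0.05 and none was called. Among 11 protein disulfide isomerases, the enzymes that form disulfide bonds in the ER, Pdia6 (-0.46 ± 0.08, adjusted p = 0.00244, edgeR) and Pdia4 (-0.53 ± 0.11, 0.0386) fell in batch 2 and had changes of -0.14 and -0.13 in batch 1. Of all genes, 0.128% were called lower in batch 2. The Pdia4 call was lost in 7 of 19 fits, the Pdia6 call in none.

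Dbp and Usp2, both tied to the clock, were among the genes whose burn change differed between the batches by test. Dbp, an output gene of the circadian clock, had the smallest p for the difference (chr7:45705088-45710203). It read 42.1, 41.8, 47, 43.2 and 42.6 CPM after burn and 41.5, 39.3, 44.1 and 44.8 CPM after sham in batch 1. In batch 2 it read 46, 45.3, 43.4, 49.8 and 43.9 CPM after burn and 23.1, 19.97, 28.7, 18.8 and 23 CPM after sham. Both groups of batch 1 and the burn group of batch 2 covered overlapping ranges, and the 5 sham libraries of batch 2 lay below all others. The change was 0.03 ± 0.10 in batch 1 (adjusted p = 0.88, edgeR) and 1.01 ± 0.09 in batch 2 (4.57e-07), a difference of 0.98 ± 0.14 (adjusted p = 0.00199). The excision libraries, which share these sham controls, read 41.3 to 53.6 CPM in batch 1 and 26.9 to 35.3 CPM in batch 2.

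Usp2, a deubiquitinase that clock factors drive, read 49.6, 61.9, 57.6, 58.8 and 56.1 CPM after burn and 62.7, 54.6, 58.4 and 59.4 CPM after sham in batch 1, and 84.9, 89.8, 82.8, 88.2 and 74.7 CPM against 56.2, 59.7, 63.1, 61.1 and 57.8 CPM in batch 2. Here the burn group of batch 2 was the one apart from the other 3. The difference of the changes was 0.54 ± 0.09 (adjusted p = 0.0107, edgeR), from -0.05 ± 0.07 in batch 1 and 0.5 ± 0.06 in batch 2. Its adjusted p was 0.0507 without sham replicate 2 of batch 1, 0.0585 with burn and sham libraries alone and 0.0825 with the TEC share of the counts as a covariate. Nr1d1, which encodes the clock repressor REV-ERB alpha, read 74, 67.5, 66.6, 72.8 and 68.6 CPM after burn and 86.6, 65.3, 66.6 and 74.6 CPM after sham in batch 1, where the groups overlapped. The batch 2 levels were 102, 101, 90.8, 117 and 102 CPM after burn and 76.5, 67.7, 84.2, 74.6 and 75.5 CPM after sham, where they were apart. Its change of 0.44 ± 0.07 in batch 2 was called (adjusted p = 0.00227, edgeR), its change of -0.07 ± 0.08 in batch 1 was not, and the difference of 0.5 ± 0.10 missed the threshold (0.0663). The Nr1d1 difference was called in 5 of the 19 fits that left out a library, among them those without sham replicate 5 of batch 1 (0.0136) and sham replicate 3 of batch 2 (0.0186).

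A further pair of clock genes was called in batch 2. The repressor Ciart rose by 0.61 on the log2 scale (adjusted p = 0.0115, edgeR) against -0.15 in batch 1, and lost its call without burn replicate 4 or 5 or sham replicate 2 of batch 2 (adjusted p of at most 0.0832). Nfil3, a repressor at the sites that Dbp activates, changed by -0.6 ± 0.11 (0.00749) against -0.18. Usp2 was not on the list of clock genes. Of the 17 measured genes of that list, 3 were called higher (0.0664% of all genes) and 1 lower (0.128%) in batch 2. None was called in batch 1, where 9.24% of all genes were. The list's medians were -0.04 and -0.02, with changes of both signs in each batch. For the difference, 6 were higher and 2 lower at an unadjusted p under 0.05, with Dbp the sole call.

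The other 7 genes called for the difference were lower after burn in batch 1 and had positive changes in batch 2. Lncppara, a noncoding transcript, read 1.67, 0.899, 0.86, 1.12 and 0.97 CPM after burn and 4.97, 3.64, 5.61 and 1.35 CPM after sham in batch 1, where sham replicate 5 lay among the burn libraries. Batch 2 gave 2.41, 3.43, 3.64, 3.31 and 3.24 CPM after burn and 2.6, 2.2, 2.7, 1.9 and 1.23 CPM after sham. Its changes of -1.87 ± 0.28 and 0.59 ± 0.24 differed by 2.46 ± 0.37 (adjusted p = 0.00388, edgeR), and the difference held with each library left out but was 1.68 and not called (0.164) with the TEC share of the counts as a covariate. Ccna2, the cyclin of S phase, read 0.644, 0.374, 0.323, 0.511 and 0.554 CPM after burn and 1.22, 2.49, 1.45 and 0.942 CPM after sham in batch 1, and 1.28, 1.39, 1.5, 1.236 and 1.39 CPM against 1.18, 1.07, 1.07, 0.855 and 0.972 CPM in batch 2. Its groups were apart in opposite directions in the 2 batches, and its changes of -1.74 ± 0.27 and 0.4 ± 0.22 differed by 2.14 ± 0.35 (0.00773; 1.81 and 0.257 with the TEC share as a covariate). Both are low transcripts, with at most 5.61 CPM for Lncppara and 2.49 CPM for Ccna2 in these libraries.

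Tbx2, a T-box repressor, read 0.753 to 1.12 CPM after burn and 0.942 to 2.19 CPM after sham in batch 1, and 1.23 to 1.83 against 0.766 to 1.16 CPM in batch 2. The difference of 1.73 ± 0.31 (adjusted p = 0.0176, edgeR) was lost without burn replicate 3 or 4 or sham replicate 2 or 4 of batch 1 (at most 0.0759), and with the TEC share as a covariate (0.659). Zfp362, a zinc finger gene, had changes of -0.18 ± 0.06 and 0.23 ± 0.05, and the difference of 0.42 ± 0.08 (0.0382) was lost in 9 of the 19 fits and with the TEC share as a covariate (0.0793). The remaining 3 genes, 9530062K07Rik, Gm42849 and Cd160, averaged under 1 CPM, with differences of 1.61, 2.61 and 1.82. Gm42849 was named by the rule for a call in 1 batch, and 9530062K07Rik and Cd160 were named after their values were seen.

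**Figure D3:**
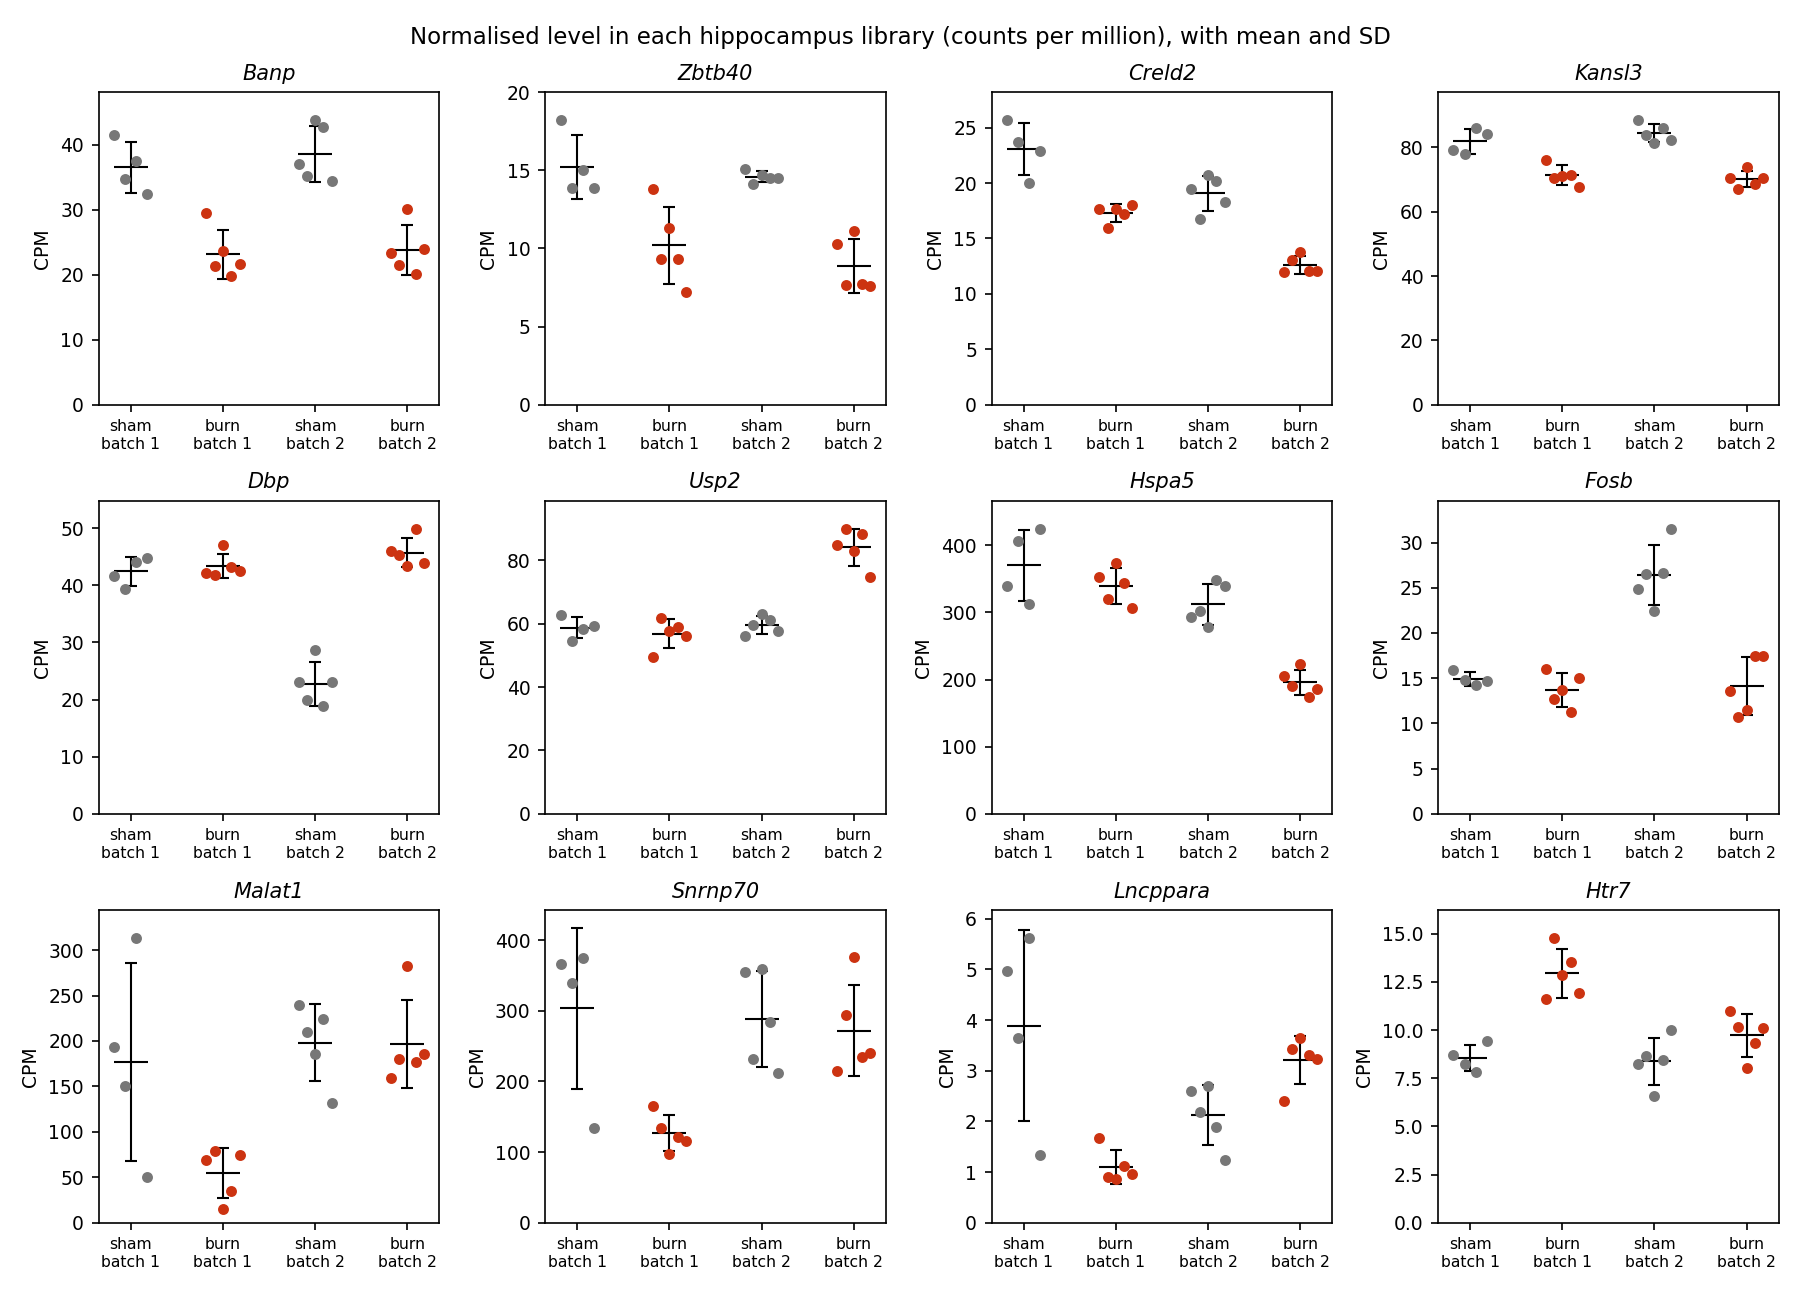
Normalised level (CPM, axes from 0) of 12 genes in each library by group, with mean and SD; grey points are sham and red points burn libraries. In the top row burn lies below sham in both batches, in the middle row the batch 2 groups separate while the batch 1 groups overlap, and in the bottom row (Malat1, Snrnp70, Lncppara, Htr7) the burn libraries of batch 1 stand away from 3 or 4 of the sham libraries of that batch.

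Of 18 immediate early genes, whose transcription follows neuronal activity, 2 were called lower in batch 2 (0.128% of all genes). Fosb, a subunit of the AP-1 factor, read 16, 12.7, 13.7, 11.2 and 15 CPM after burn and 15.9, 14.8, 14.2 and 14.7 CPM after sham in batch 1, and the groups overlapped. Levels in batch 2 were 13.6, 10.7, 11.5, 17.5 and 17.4 CPM after burn and 24.8, 26.5, 22.4, 26.6 and 31.4 CPM after sham, and the groups were apart. The 5 sham libraries of batch 2 were above all other libraries. Its change was -0.13 ± 0.15 in batch 1 (adjusted p = 0.657, edgeR) and -0.9 ± 0.14 in batch 2 (0.00126), a difference of -0.77 ± 0.21 (0.0933). That difference was called without sham replicate 5 of batch 1 (0.042) or sham replicate 3 of batch 2 (0.0447).

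Homer1, a synaptic scaffold with a short activity-induced form that these gene counts do not separate, read 110.3, 92.4, 77.6, 75.7 and 70.8 CPM after burn and 81.8, 83.9, 84.1 and 91.4 CPM after sham in batch 1. In batch 2 it read 86.5, 65.5, 79.5, 76.1 and 79.9 CPM after burn and 111, 137, 131, 118 and 204 CPM after sham, with sham replicate 5 the highest library of all. Its changes were 0.01 ± 0.15 and -0.85 ± 0.14 (adjusted p = 0.00244 in batch 2, edgeR), and the batch 2 call held with each library left out. The difference of -0.86 ± 0.21 missed the threshold (0.081), but passed without sham replicate 5 of batch 1 (0.0216) or sham replicate 3 of batch 2 (0.0422). Of these genes 15 had a positive change in batch 1 (median 0.08) and 15 a negative one in batch 2 (median -0.37). Fosb and Homer1 were the 2 calls in batch 2, none was called in batch 1, and 8 were lower for the difference at an unadjusted p under 0.05 with none called. Fos itself had changes of 0.25 ± 0.29 and -0.75 ± 0.26 (adjusted p = 0.375 in batch 2, edgeR), and Egr3 of 0.03 and -0.47 (0.103).

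Wnt9a, a secreted Wnt ligand, read 5.45, 6.55, 6.99, 8.94 and 7.48 CPM after burn and 5.36, 5.29, 5.79 and 7.27 CPM after sham in batch 1. The batch 2 levels were 11.8, 12.3, 11.7, 14.1 and 10.2 CPM after burn and 4.8, 4.44, 7.65, 4.95 and 6.25 CPM after sham, with all burn libraries above all others. Its change of 0.28 ± 0.18 in batch 1 was not called, that of 1.1 ± 0.16 in batch 2 was (adjusted p = 0.00121, edgeR), and the difference missed the threshold (0.114; 0.0402 without sham replicate 3 of batch 2). P4ha1, an ER enzyme that hydroxylates collagen, and Otub2, a deubiquitinase, fell in batch 2 with log2 changes of -0.45 and -0.58, against changes of -0.17 and -0.28 in batch 1 (adjusted p = 0.139 and 0.0524, edgeR). Otub2 was also called in batch 1 in 8 of the 19 fits that left out a library.

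Cirbp, the cold-induced RNA-binding protein, read 36.2, 39.4, 40.04, 39.4 and 46.2 CPM after burn and 45.1, 47.1, 43.9 and 31.9 CPM after sham in batch 1. Batch 2 gave 52.3, 69.5, 43.9, 74.2 and 66.4 CPM after burn, of which replicate 3 lay within the sham range of 35.1 to 45.9 CPM. Its change of 0.62 ± 0.12 in batch 2 (adjusted p = 0.0203, edgeR) against -0.08 ± 0.13 in batch 1 was called, but lost in 6 of 19 fits. The difference of 0.7 ± 0.18 (0.0921) was called without sham replicate 5 of batch 1 (0.0134) or sham replicate 3 of batch 2 (0.0402). Of the 18 heat shock genes, 16 had a negative change in batch 2 (median -0.14) and none was called there. In batch 1 the list's median was -0.04 and its sole call was Hsf1, the heat shock factor itself (-0.46, adjusted p = 0.0248, edgeR). There 6.73% of all genes were called lower. The Hsf1 call was lost without burn replicate 2 or 3 or sham replicate 2 or 4. The kinases Clk1 and Clk4 and the splicing proteins Luc7l3 and Tra2a, also on the temperature list, fell in batch 1 and are given with the splicing genes.

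Of the 11 nuclear long noncoding RNAs measured, 8 were called lower in batch 1 (6.73% of all genes were), with a median of -1.72, and none in batch 2 (median -0.08, 0.128% of all genes). Malat1, a transcript of nuclear speckles (chr19:5795690-5802672), read 69.6, 78.7, 15.6, 34.7 and 75 CPM after burn and 193, 151, 313 and 50.3 CPM after sham in batch 1. Levels in batch 2 were 159.6, 179.97, 282, 177 and 186 CPM after burn and 239.7, 209.7, 186, 224 and 132 CPM after sham. The burn libraries of batch 1 stood below 3 of its sham libraries and below all of batch 2, and sham replicate 5 lay among them. Its change was -1.72 ± 0.41 in batch 1 (adjusted p = 0.00956, edgeR) and -0.01 ± 0.37 in batch 2. The difference of 1.71 ± 0.55 was not called (0.132); without sham replicate 5 of batch 1 it was 2.01 and called (0.0237), and without sham replicate 4 the batch 1 change was -1.29 and no longer called (0.0827).

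Kcnq1ot1, the long RNA that silences an imprinted cluster, changed by -2.13 ± 0.39 in batch 1 (adjusted p = 0.0041, edgeR), against -0.24 ± 0.34 in batch 2, and the difference of 1.9 (0.097) was called without sham replicate 5 of batch 1 (0.0136) or sham replicate 3 of batch 2 (0.0496). It read 1.68 to 4.53 CPM after burn and 3.77 to 19.7 CPM after sham in batch 1, and 6.2 to 13.3 against 6.48 to 13.9 CPM in batch 2. It lies antisense to Kcnq1, and the strand setting of the counts is not given in the sources used here, so reads of the 2 genes may not be told apart. Miat, Mirg, Meg3, Snhg11 and Neat1 fell in batch 1 with log2 changes of -1.91, -1.99, -1.91, -1.9 and -0.99, against -0.11, -0.26, -0.08, -0.1 and 0.15 in batch 2. Meg3 and Snhg11 were named after their values were seen. The calls of Miat and Neat1 were lost without sham replicate 4 of batch 1, and that of Neat1 also without burn replicate 3 or sham replicate 2.

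Some splicing genes were also called lower in batch 1. Snrnp70, a protein of the U1 particle that marks splice sites, read 166, 134, 97.9, 121 and 116 CPM after burn and 365, 339.6, 375 and 134 CPM after sham in batch 1. In batch 2 it read 215, 294, 375, 235 and 239.6 CPM after burn and 354, 232, 359, 284 and 211 CPM after sham. The batch 1 burn libraries were below every other library except sham replicate 5 of that batch, which lay among them. The change was -1.26 ± 0.24 in batch 1 (adjusted p = 0.00411, edgeR) and -0.08 ± 0.23 in batch 2, and the difference of 1.18 ± 0.33 (0.106) was 1.42 and called without sham replicate 5 (0.00969). All 18 measured splicing factor and speckle genes had a negative change in batch 1, 7 of them called (median -0.34, 6.73% of all genes called lower), and 14 had one in batch 2, with none called (median -0.04, 0.128% of all genes). The speckle scaffold Srrm2 (-0.88) and the splicing coactivator Acin1 (-0.59) held their calls with each library left out.

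Luc7l3, a U1-associated protein, read 52.5 to 76.2 CPM after burn and 57.5 to 122 CPM after sham in batch 1, with overlap through sham replicate 5. It changed by -0.7 ± 0.16 (adjusted p = 0.00807, edgeR; 0.062 without sham replicate 4), against -0.06 ± 0.15 in batch 2, and the difference was called without sham replicate 5 of batch 1 (0.82, 0.0136). Clk1, a kinase of splicing factors, changed by -1.07 ± 0.27 (0.0126; 0.0644 without sham replicate 2 and 0.083 without 4), against -0.24 ± 0.25. Its relative Clk4 changed by -0.83 (0.0107) and -0.03, and its call was lost without sham replicate 4. Tra2a, a splicing activator, was the exception in size: its changes were -0.36 ± 0.12 (0.0496) and -0.39 ± 0.11 (0.182), and its batch 1 call was lost in 14 of 19 fits.

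Of 20 DNA repair genes and helicases, 7 were called lower in batch 1 (median -0.24, 6.73% of all genes) and none in batch 2 (median -0.01, 0.128% of all genes). Among them the repair polymerase Polq (-1.5 ± 0.25, adjusted p = 0.00392, edgeR) and the telomere helicase Rtel1 (-1.03 ± 0.20, 0.00447) held their calls with each library left out, against changes of -0.02 and 0.09 in batch 2. Rfx1, a transcription factor of the winged-helix family, read 19, 17.4, 15.6, 13.6 and 16.2 CPM after burn and 33.6, 27.3, 32.6 and 20.9 CPM after sham in batch 1, and the groups did not overlap. The batch 2 levels were 24.7, 28.2, 30.4, 24.3 and 25.7 CPM after burn and 31.1, 22.4, 30.2, 26 and 23.4 CPM after sham, and they did. Its changes were -0.82 ± 0.13 (0.00392) and 0.00 ± 0.12, with a difference of 0.82 ± 0.18 (0.0679; 0.00849 without sham replicate 5 of batch 1 and 0.0304 without sham replicate 3 of batch 2).

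TEC gene models moved with these falls. Of 392 TEC models, 108 were called lower in batch 1 (27.6%, against 6.73% of all genes) and none in batch 2, with medians of -0.67 and -0.01. Antisense genes (83 of 582 lower, 14.3%) and long intergenic noncoding RNAs (80 of 644 lower, 12.4%) had the same direction. Processed pseudogenes had 81 of 1981 called higher (4.09%, against 2.51% of all genes) and 20 lower (1.01%, against 6.73%). TEC models took 0.0436 to 0.056% of the counts in the burn and 0.051 to 0.0858% in the sham libraries of batch 1 (exact permutation test, two-sided, p = 0.0317, adjusted over 52 tests 0.413). In batch 2 they took 0.0628 to 0.0816% and 0.0653 to 0.0769% (exact permutation p = 0.921). With this share as a covariate, 0 genes were called in batch 1: the 491 higher genes all kept their sign at a median of 0.23 in place of 0.36, and 1262 of the 1317 lower genes kept theirs at a median of -0.23 in place of -0.86. In the same fit 55 genes were called in batch 2, with a batch 1 change of -0.19 for Malat1, -0.32 for Snrnp70 and -0.47 for Banp. The share is taken from the same counts and was lower after burn in batch 1, so it and the treatment cannot be fully told apart there.

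Of the 491 genes called higher in batch 1, 0 were called higher in batch 2, where 0.0664% of all genes were, so this count says nothing about them. Mgat2, a Golgi enzyme of N-glycan synthesis, read 29.2, 26.4, 28.2, 28.3 and 28.8 CPM after burn and 19.7, 19.4, 20.5 and 21.4 CPM after sham in batch 1. Batch 2 gave 27.9, 24, 24.1, 25.5 and 26.2 CPM after burn and 20.4, 24.4, 22.1, 22 and 28.3 CPM after sham, and the groups overlapped. Its changes were 0.48 ± 0.09 (adjusted p = 0.0041, edgeR) and 0.12 ± 0.08 (0.882). Htr7, a serotonin receptor of hippocampal neurons, read 11.6, 14.8, 12.8, 13.5 and 11.9 CPM after burn and 8.68, 8.23, 7.83 and 9.42 CPM after sham in batch 1, with no overlap, and 11, 10.2, 8.02, 9.34 and 10.1 CPM against 8.24, 8.63, 6.58, 8.45 and 10.01 CPM in batch 2, with overlap. It rose by 0.61 ± 0.13 in batch 1 (0.00497), against 0.21 ± 0.11 (0.744) in batch 2, and the batch 1 call held with each library left out.

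With Htr7, the monoamine-degrading enzyme Maoa (0.31) and the adrenergic receptor Adrb1 (0.41) made 3 higher calls among 20 genes of monoamine and opioid signalling (2.51% of all genes), and both lost them without sham replicate 2 or 4. In this list 18 changes were positive in batch 1 (median 0.33) and 8 in batch 2 (median -0.10). Of 14 subunits of the GABA-A receptor, the main inhibitory receptor of the brain, 13 had a positive change in batch 1 (median 0.17) and 9 in batch 2 (median 0.02). All 14 clustered protocadherins, adhesion proteins that share long stretches of sequence and so may share reads, were positive in batch 1 (median 0.42, 3 called higher, 2.51% of all genes) and 12 in batch 2 (median 0.08, 0 called). The Wnt receptors Fzd1 (0.59) and Fzd8 (0.54) rose in batch 1, and both lost their calls without burn replicate 4 or sham replicate 2 or 4, and Fzd8 also without burn replicate 3 or sham replicate 3.

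**Figure D4:**
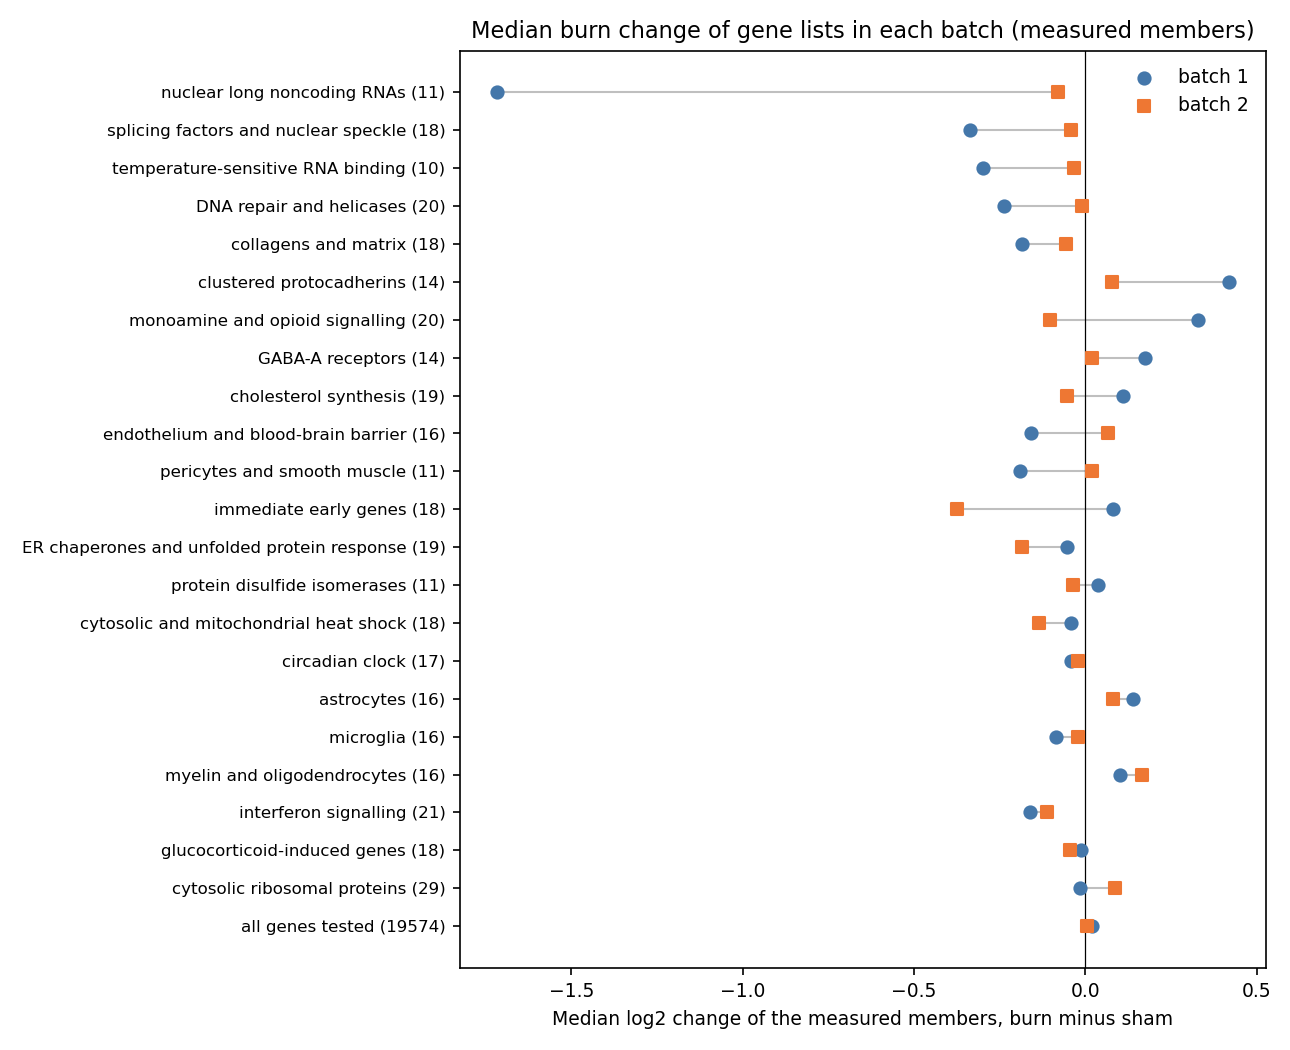
Median log2 change (burn minus sham) of the measured members of selected gene lists and of all genes tested, in batch 1 (circles) and batch 2 (squares), with the number of measured members in brackets. The medians lie far apart for nuclear long noncoding RNAs (-1.72 and -0.08), monoamine and opioid signalling (0.33 and -0.10) and immediate early genes (0.08 and -0.37), and close together for astrocytes, microglia, myelin and glucocorticoid-induced genes.

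Some vessel, matrix and blood genes were called lower in batch 1, and the falls of the alpha globin genes rested on 1 library. Col4a1, a chain of basement membrane collagen, read 10.9 to 18.7 CPM after burn and 16.7 to 40.7 CPM after sham in batch 1, and 22.5 to 38.8 against 28.1 to 37.8 CPM in batch 2. It changed by -0.95 ± 0.20 (adjusted p = 0.00557, edgeR; 0.0529 without sham replicate 4), against -0.18 ± 0.18 in batch 2, and the difference was called without sham replicate 5 of batch 1 (0.94, 0.0298). Of 18 collagen and matrix genes, 4 were called lower in batch 1 (median -0.18, 6.73% of all genes) and 1, P4ha1, in batch 2 (median -0.06, 0.128% of all genes). Endothelial genes had 15 of 16 negative changes in batch 1 (median -0.16) and 13 positive ones in batch 2 (median 0.06). Sox18, lower in batch 1, was the list's sole call, where 6.73% of all genes were called lower. That call was lost without burn replicate 2 or 3 or sham replicate 2 or 3. The batch 1 median of that list was 0.04 without sham replicate 4.

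Hba-a1, an alpha globin whose reads may be shared with its near-identical copy Hba-a2, read 43.2, 101, 46.1, 58.9 and 84.6 CPM after burn and 73.9, 939.8, 31.7 and 92.2 CPM after sham in batch 1. Levels in batch 2 were 78.2, 61.9, 79.5, 138 and 92.8 CPM after burn and 74.4, 42.5, 70.5, 59.5 and 47.5 CPM after sham. Its fall in batch 1 (-2.1 ± 0.60, adjusted p = 0.0255, edgeR) rested on sham replicate 3, without which the change was 0.03 (0.977). The batch 1 calls of Hba-a1 and Hba-a2 were also lost without burn replicate 1, 3 or 4. Of 8 measured haemoglobin and red cell genes, 3 were called lower in batch 1 (6.73% of all genes) and none in batch 2 (0.128%). The medians were -0.76 and 0.54, and without sham replicate 3 the batch 1 median was 0.07. The same library held the highest neutrophil and B cell sums, and the fall of the plasma cell gene Jchain (-1.75 in batch 1) was -0.82 and not called without it. The Jchain call was lost in 7 of the 19 fits that left out a library.

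Glial and stress hormone genes had no call in either batch. None of 16 astrocyte, 16 microglia, 16 myelin and 18 glucocorticoid-induced genes was called, with medians in batch 1 and batch 2 of 0.14 and 0.08, -0.09 and -0.02, 0.10 and 0.16, and -0.01 and -0.05. Of all genes, 9.24% were called in batch 1 and 0.194% in batch 2, so the lack of calls in batch 2 says nothing about these lists. Gfap, the filament protein of reactive astrocytes, had changes of 0.05 ± 0.14 and 0.07 ± 0.13 in batches 1 and 2, and Aif1, a microglial marker, of -0.32 ± 0.19 and -0.03 ± 0.17. Of 14 measured complement genes, 2 were called lower in batch 1 (6.73% of all genes) and none in batch 2 (0.128%), with medians of -0.13 and -0.05. The complement genes Cfp (-2.01) and C5ar1 (-0.93) were called lower in batch 1. The Cfp call held with each library left out, and the C5ar1 call was lost without sham replicate 2 or 3. The complement gene C4b had changes of -0.22 ± 0.14 and 0.01 ± 0.13, the neurotrophin Bdnf of 0.22 ± 0.12 and -0.04 ± 0.11, and the glucocorticoid target Fkbp5 of -0.14 ± 0.11 and -0.09 ± 0.10. A missed threshold does not show that these levels were equal. Of 21 interferon genes 2 were called, a share near the 6.73% of all genes called lower in batch 1: Stat2 (-0.47) and Irf9 (-0.61), both lower in batch 1 and lost without sham replicate 4 (Irf9 also without burn replicate 3 or 4 or sham replicate 2), and none in batch 2, with medians of -0.16 and -0.11.

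Choroid plexus genes had positive changes in all 17 of 17 members in both batches with no call (medians 0.75 and 0.92). Their summed level ran from 169 to 9474 CPM in the burn and from 169 to 7271 CPM in the sham libraries of batch 1. In batch 2 it ran from 174 to 4874 CPM after burn and from 155 to 4060 CPM after sham. The batch 1 median was -0.49 without burn replicate 2 of batch 1. Ribosomal protein genes had a positive change in 29 of 29 members in batch 2 (median 0.09) and in 8 in batch 1 (median -0.02), again with no call.

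How many genes were called depended on single libraries of batch 1. Leaving out sham replicate 4 of that batch gave 340 calls there in place of 1808, and sham replicate 2 gave 608. Burn replicates 3 and 4 gave 1002 and 1167, and sham replicate 5 gave 3111. The count for the difference was 939 without sham replicate 5 of batch 1 and 379 without sham replicate 3 of batch 2. It was 18 without burn replicate 1 of batch 1, 14 without burn replicate 1 of batch 2, 5 without burn replicate 3 or sham replicate 2 or 4 of batch 1, and otherwise 6 to 11. The 113 genes of batch 1 that repeated in batch 2 became 20 without sham replicate 4 of batch 1 and 223 without sham replicate 5 of batch 2. In batch 2 the count was 20 without burn replicate 2 or sham replicate 4 of that batch, 21 without burn replicate 4, 24 without sham replicate 2 and 23 without sham replicate 5, and otherwise 26 to 45. With each of the 19 libraries left out in turn, 279 of the 1808 batch 1 genes, 17 of the 38 batch 2 genes and 3 of the 9 genes of the difference (Dbp, Lncppara and Ccna2) were called every time. Banp was called in both batches in all 19 of these fits, Creld2 in 18, Kansl3 in 17 and Zbtb40 in 16. With DESeq2 in place of edgeR, 2366 genes were called in batch 1, 132 in batch 2 and 355 for the difference.

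**Figure D5:**
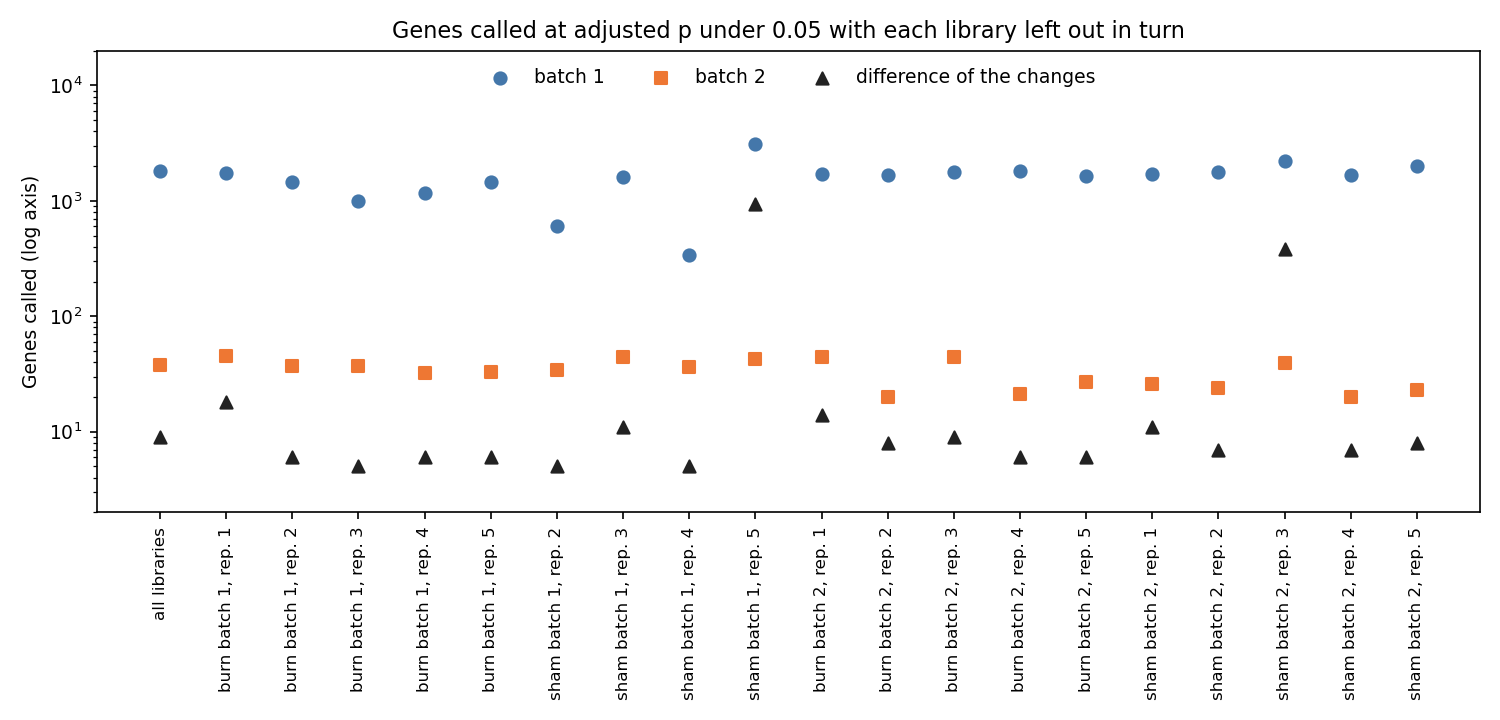
Number of genes called (log axis) in batch 1, in batch 2 and for the difference of the changes, with all libraries and with each of the 19 burn and sham libraries left out in turn. Batch 1 counts run from 340 to 3111 and batch 2 counts from 20 to 45, and the difference rises to 939 without sham replicate 5 of batch 1.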

How the data were processed

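Bulk RNA-seq read counts per gene were used as the authors deposited them: whole numbers for 55416 gene identifiers in 71 libraries of 100 bp single-end reads. Per the submitters' processing notes the build was GRCm38 and the tools were STAR, fastp, FastQC 0.11.3 and DESeq2 1.24.0; for the counter, its strand setting and the annotation release, the sources used here give nothing. Symbols and classes came from GENCODE M21, which matched 52135 identifiers; the 3281 without a match held 0.658% of the hippocampus counts.

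Groups came from the labels. Counts of the 29 hippocampus libraries were fitted with edgeR 4.0.16 (R 4.3.3): filterByExpr, TMM scaling and the quasi-likelihood test over 6 groups of treatment and batch, with Benjamini-Hochberg adjustment over 19574 genes at 0.05. The difference of the burn changes was an interaction contrast. The 19 burn and sham libraries held 7130376 to 47796536 counts, so the shallow libraries of batch 1 are less precise. No 2 libraries within a group were identical, and the lowest chi-square per degree of freedom among 36 pairs was 4.10. The fit was also run on simulated counts with known changes in the burn libraries of batch 2 alone. Those counts had the same dispersion for every gene and no outlying library, so that run cannot show how the fit handles such libraries.

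Named genes were, by rule, those with the smallest p for the difference or for repetition in both batches, with a mean of at least 1 CPM. The rule for a call in 1 batch had no such limit. Members with the smallest p within each of 60 gene lists and a set of always-read genes were also named. The members and lists were chosen with earlier results of these data known. Same-numbered libraries did not pair: the correlations of their deviations ran from -0.29 to 0.12 over 9 pairs, so no replicate block entered the fit. Alternatives were other scaling, no filter, DESeq2 1.42.0, limma-voom 3.58.1, robust dispersions, burn and sham libraries alone, each batch alone, the TEC share as a covariate, 2 surrogate variables (sva 3.50.0), a replicate block, the fit without the 4 shallowest libraries, and each library left out in turn. Promoter sequences were RefSeq's on GRCm38.p6.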

Additional observations from a re-analysis of the deposited data

Results flagged for a closer look

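Single libraries stood away from the rest of their group in 20 of 240 groups of values tested, where chance gives about 1 in 20. Sham replicate 3 of batch 1 had the highest blood cell sums: 294 CPM for neutrophil genes (others 16.6 to 22.0), 45.7 CPM for B cell genes (15.7 to 19.9), 3146 CPM for haemoglobin and red cell genes (421 to 760) and 940 CPM for Hba-a1 (31.7 to 92.2). Sham replicate 5 of batch 1 had 7271 CPM of choroid plexus genes (169 to 475), 505 CPM of thalamus and septum genes (197 to 225), 0.942 CPM of Tbx2 (2.00 to 2.19) and 134 CPM of Snrnp70 (340 to 375). Sham replicate 4 of that batch had 15.2 CPM of Sdf2l1 (22.5 to 23.6).

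Among burn libraries of batch 1, replicate 5 had 22242 detected genes (others 25514 to 26355) and 7130376 counts. Replicate 1 had 52.3 CPM of Prkab2 (33.3 to 37.7), replicate 2 had 555.5 CPM of CA3 and CA2 genes (651 to 686) and replicate 3 had 47.0 CPM of Dbp (41.8 to 43.2).

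In batch 2, burn replicate 4 had 10.2% mitochondrial counts (5.05 to 5.90), 9.94 CPM of T cell genes (3.15 to 4.00) and 74.5 CPM of Insig1 (61.8 to 63.6). Burn replicate 3 had 282 CPM of Malat1 (159.6 to 186). Among sham libraries of batch 2, replicate 2 had 14.5 CPM of Med20 (17.3 to 17.9), replicate 3 had 12.2 CPM of T cell genes (3.09 to 4.89) and replicate 5 had 204 CPM of Homer1 (111 to 137).

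The burn change differed between batches, batch 2 minus batch 1 on the log2 scale with edgeR's quasi-likelihood test, for Dbp (0.98, adjusted p = 0.00199), Lncppara (2.46, 0.00388), Ccna2 (2.14, 0.00773), 9530062K07Rik (1.61, 0.00881), Usp2 (0.54, 0.0107), Tbx2 (1.73, 0.0176), Gm42849 (2.61, 0.0279), Zfp362 (0.42, 0.0382) and Cd160 (1.82, 0.0498).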

How the results depend on the processing

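With the TEC share as a covariate, 0 genes were called in batch 1 and 1 for the difference, and 0 batch 1 genes could repeat; Srrm1 and Col5a1 turned to 0.0416 and 0.20 in batch 1. With DESeq2's Wald test 132 genes were called in batch 2 and 355 for the difference, and 38 of the batch 2 genes repeated in batch 1. With 2 surrogate variables these counts were 100, 346 and 37, and 176 batch 1 genes repeated in batch 2. Without a filter on low counts 9 batch 2 genes repeated. With burn and sham libraries alone 5 genes were called for the difference. Without the libraries of at most 7339556 counts 2823 genes were called in batch 1 and 747 for the difference, and 9 batch 2 genes repeated. The cause of these shifts was not tested.

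With the replicate number as a replicate block and burn and sham libraries alone, 798 genes were called in batch 1, 6 in batch 2 and 0 for the difference (2182 at an unadjusted p under 0.05), and 69 and 2 genes repeated. The labels give no pairing, 2 of 9 same-numbered pairs correlated over 0.1 and none correlated best with its own number. Calls lost under the block are given as counts, and the cause was not tested.

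With each library left out in turn, the counts ran from 340 to 3111 for batch 1, 20 to 45 for batch 2, 5 to 939 for the difference, 20 to 223 for batch 1 genes that repeated and 6 to 20 for batch 2 genes that repeated. The batch 1 change ran from -2.48 to 0.0333 for Hba-a1 and from -2.46 to 0.0167 for Hba-a2, the positive values without sham replicate 3. Of the named genes' values under the alternatives, 39420 kept direction and side of the threshold, 746 lost a call, 343 gained one and 4 reversed. In batch 1, 2 of 9 libraries had only 7130376 and 7339556 counts, which limits the precision of their low genes.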
